A study of Penicillium oxalicum with 9 samples.

Results

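The genes described here were low in *P. oxalicum* mycelium that lacked *rsrA* and close to the parental level in mycelium that lacked *rsrB*. Of 9721 genes listed, 63 were chosen on log2(FPKM + 1), where FPKM is the number of fragments per kilobase of transcript, scaled to the mapped fragments of the library. They had a mean difference Δ*rsrA* minus Δ*ku70* of -2 or less and an absolute mean difference Δ*rsrB* minus Δ*ku70* under 0.5. In addition, all 3 Δ*rsrA* values lay under all 6 other values, the 3 Δ*ku70* values spanned at most 1.5, and *rsrA* itself was left out. All 9 libraries entered this choice, so the differences between strains below describe the 63 genes and test nothing.

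Poly(A) RNA was sequenced from 3 libraries each of deletion mutant Δ*rsrA*, deletion mutant Δ*rsrB* and parental strain Δ*ku70*, whose genotype the labels give as WT. Mycelium was grown in glucose medium for 24 h and collected 24 h after transfer to enzyme-producing medium. The carbon source of that medium is given as raw starch in 1 field of the labels and as Avicel in another, and the study's methods name corn starch. Loss of *ku70* was shared by all 9 libraries. Per the strain list, the parental strain carries the *hph* resistance marker and both mutants carry in addition the G418 resistance cassette. In a comparison of either mutant with Δ*ku70* alone, that cassette and the deletion come together. Δ*rsrB* carries the cassette too, so it is on both sides of a comparison of Δ*rsrA* with Δ*rsrB*. The part of the cassette in the levels was not tested. Both comparisons with the parental strain share its 3 libraries. The study calls the libraries of a strain biological replicates. How the cultures were kept apart is not described in the sources used here, so the p-values measure the spread between these libraries.

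*P. oxalicum* is a filamentous fungus that secretes amylases able to degrade raw, ungelatinised starch. In filamentous fungi, the genes of such secreted enzymes are switched on by transcription factors (TFs) that respond to the carbon source. RsrA is a TF with SANT-like domains and RsrB a TF of the fungal Zn2Cys6 zinc finger class, and *ku70* acts in non-homologous end joining, whose loss eases targeted gene deletion. The lists name genes by identifiers that matched none of the entries of the reference table used here, so the products and positions of the 63 genes were not analysed here.

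The deleted genes were checked first. *rsrA*, POX01907, had 0.01, 0.01 and 0.04 FPKM in Δ*rsrA*, 24.23, 20.41 and 19.88 FPKM in Δ*rsrB*, and 22.87, 17.08 and 16.52 FPKM in Δ*ku70*. POX08340, taken as *rsrB* from the labels, had 8.26, 8.01 and 7.28 FPKM in Δ*rsrA*, was listed at 0 in the 3 Δ*rsrB* libraries, and had 30.62, 35.67 and 30.61 FPKM in Δ*ku70*. Both genes were low in the libraries labelled as their deletion. The level of *rsrB* in Δ*rsrA* also lay under all 3 Δ*ku70* values.

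Over all genes, Pearson's r of log2(FPKM + 1) was 0.986 to 0.994 among the Δ*rsrA* libraries, 0.977 to 0.991 among the Δ*rsrB* libraries, and 0.984 between Δ*ku70* replicates 2 and 3. Δ*ku70* replicate 1 stood apart, with r of 0.915 and 0.906 to the other parental libraries, and several results are given with and without it. The FPKM totals ranged from 950456 to 1086112. FPKM does not give the number of reads. The FPKM steps of weakly expressed genes, each worth 1 read, are larger in a library of lower depth. In the other libraries these steps were 0.993 to 1.010 times those of Δ*ku70* replicate 2. The ratio given for a library was met by 16.2% to 27.5% of 119 to 170 such genes.

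A difference of -2 or less from Δ*ku70* was found for 357 genes, of which 281 also had all Δ*rsrA* values under the 6 others. The limit on Δ*rsrB* left 91 of these genes, and the limit on the parental range left 63. Of the genes lost at the Δ*rsrB* limit alone, 92 were lower in Δ*rsrB* by 0.5 or more and 14 were higher by as much. With the sign of the rule turned, 64 genes were higher in Δ*rsrA* alone. With the mutants exchanged, the same limits found 4 genes lower and 33 genes higher in Δ*rsrB* alone.

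The 63 genes fell to a small part of the parental level in Δ*rsrA*. Their mean FPKM ranged from 0.220 to 214 in Δ*rsrA* with a median of 4.46, from 5.10 to 2029 in Δ*rsrB* with a median of 33.3, and from 6.50 to 1665 in Δ*ku70* with a median of 40.4. The median over all genes tested between Δ*rsrA* and Δ*ku70* was 22.1 FPKM in Δ*rsrA* and 28.2 FPKM in Δ*rsrB*, beside 28.8 FPKM in Δ*ku70*. Thus the typical selected gene stood below the typical gene in Δ*rsrA* and above it in Δ*rsrB* and Δ*ku70*. The rule set part of this order. A difference of -2 needs a Δ*ku70* mean log2(FPKM + 1) of at least 2, which 7865 of the 9721 genes had. A mean under 1 FPKM was reached by 11 of the 63 genes in Δ*rsrA*, and none of them was listed at 0 in any library.

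**Figure D1:**
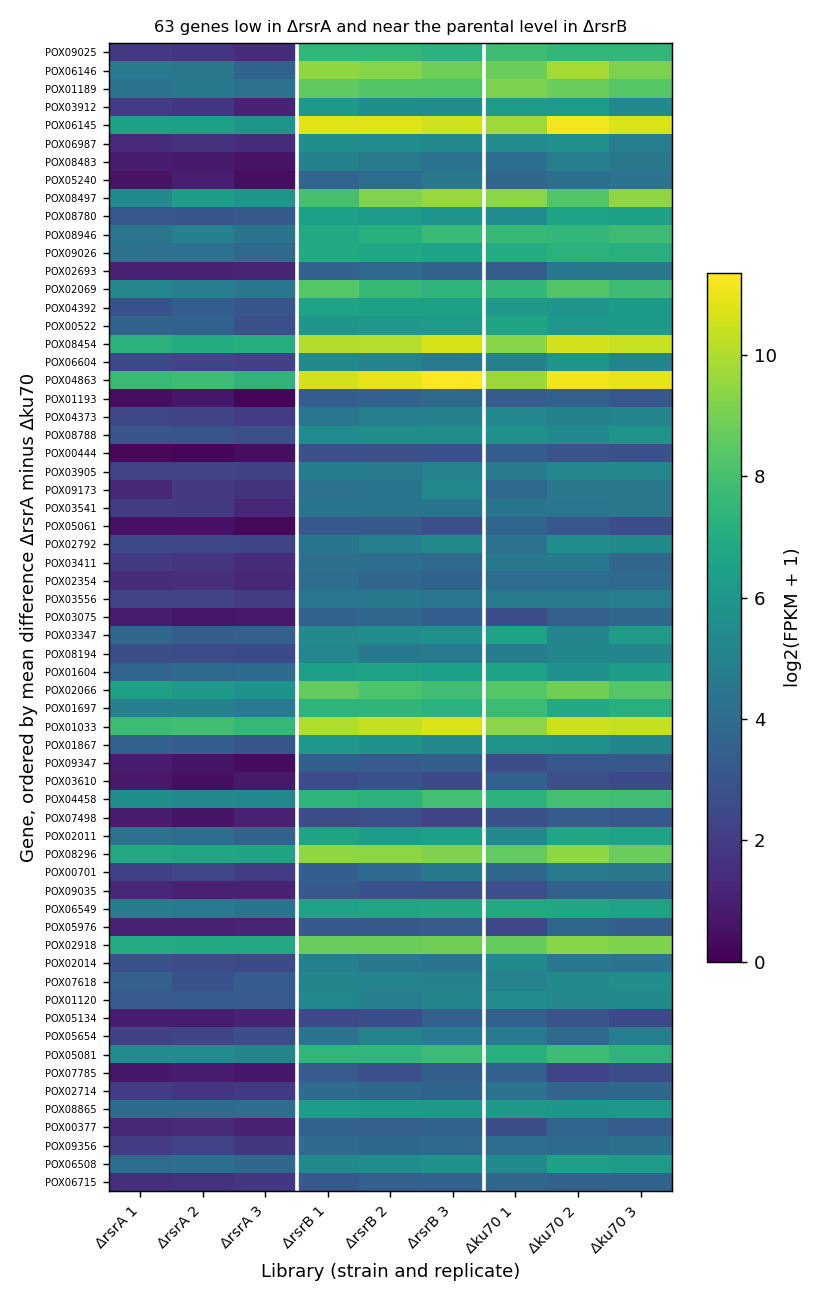
Heat map of log2(FPKM + 1) of the 63 genes, 1 row each, in the 9 libraries, 1 column each, with Δ*rsrA* at the left, then Δ*rsrB* and Δ*ku70*. Rows are ordered by the mean difference Δ*rsrA* minus Δ*ku70*, from -5.92 at the top to -2.01 at the bottom, and the 3 Δ*rsrA* columns are darker than the 6 others in every row.

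As a share of the Δ*ku70* mean, the level in Δ*rsrA* was 1.16% for POX09025 and 23.4% for POX05081, the lowest and highest of the 63 genes, with a median of 12.0%. In Δ*rsrB* the share was 66.5% for POX02693 and 140% for POX09347, with a median of 88.8%. The level in Δ*rsrA* was under 20% of the parental mean in 54 genes, under 10% in 15 and under 5% in 11. In Δ*rsrB*, 22 genes stood on the log2 scale above Δ*ku70* and 41 below it.

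On the log2(FPKM + 1) scale, the difference Δ*rsrA* minus Δ*ku70* ranged from -5.92 to -2.01 with a median of -2.53, and the median over the 8550 genes tested was -0.29. It was -4 or less in 5 genes, between -4 and -3 in 8, between -3 and -2.5 in 20, and above -2.5 in 30. The difference Δ*rsrB* minus Δ*ku70* ranged from -0.49 to 0.45 with a median of -0.11, beside a median of 0.04 over 8597 genes. Δ*rsrA* minus Δ*rsrB* ranged from -5.71 to -1.57 with a median of -2.51, beside a median of -0.34 over 8491 genes. With the libraries scaled by the median of ratios, the median over all genes was 0.02 for Δ*rsrA* minus Δ*ku70*, and the 63 genes ranged from -5.66 to -1.70. All 63 genes were thus lower in Δ*rsrA* under either scaling.

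**Figure D2:**
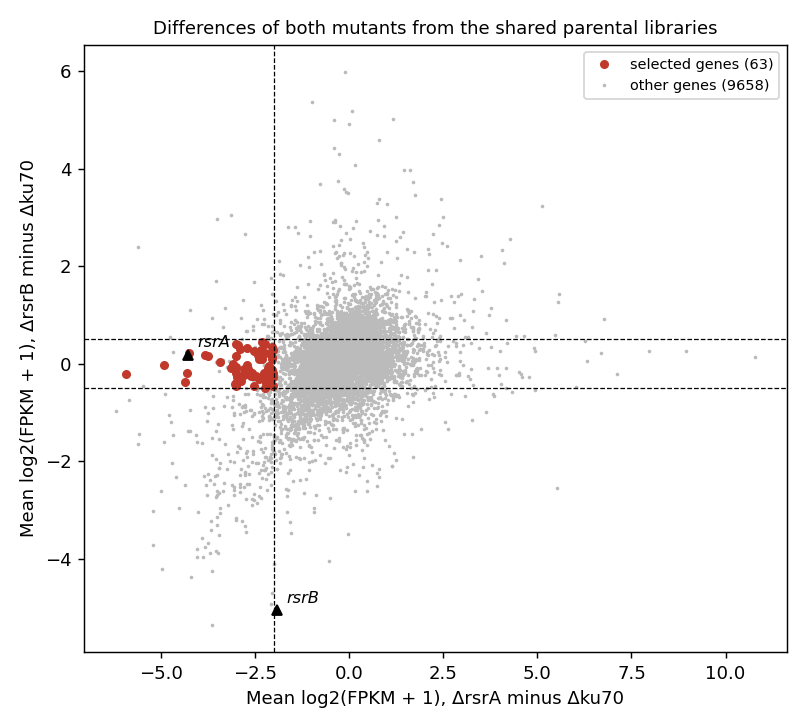
Mean difference in log2(FPKM + 1) from Δ*ku70*, with Δ*rsrA* on the horizontal axis and Δ*rsrB* on the vertical axis, for the 63 selected genes (red) and the 9658 other genes (grey), *rsrA* and *rsrB* included as triangles. Dashed lines mark the limits of -2, -0.5 and 0.5, and the selected genes fill the band left of -2 between the horizontal lines because they were chosen there.

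Against Δ*ku70*, limma on log2(FPKM + 1) called 63 of the 63 genes lower in Δ*rsrA* at an adjusted p under 0.05. It called 29.0% of all genes tested lower and 9.74% higher. After median of ratios scaling these shares were 14.7% lower and 17.8% higher, and the 63 genes were called lower again. All 3 Δ*rsrA* values lay under the 6 others in 30.5% of all 9721 genes. Against Δ*rsrB*, 63 of the 63 genes were called lower in Δ*rsrA*, beside 45.1% of all genes tested lower and 15.2% higher, or 23.8% lower and 26.0% higher with the median of ratios. Between Δ*rsrB* and Δ*ku70*, limma called 0 of the 63 genes, beside 3.95% of all genes tested. At an unadjusted p under 0.05, 2 of the 63 genes passed, beside 24.3% of all genes. The choice of the genes fixed these counts, and nothing is read from them. Without Δ*ku70* replicate 1, 2 of the 63 genes were called lower in Δ*rsrB*, POX02693 at -0.86 and POX06508 at -0.79, beside 10.9% of all genes tested that were called in either direction.

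POX09025 had the most negative difference. Its FPKM was 2.78, 2.24 and 1.84 in Δ*rsrA*, 183.77, 180.18 and 149.33 in Δ*rsrB*, and 229.39, 182.97 and 181.2 in Δ*ku70*. The 3 Δ*rsrA* values were close together and far below the rest, while the Δ*rsrB* and Δ*ku70* values lay next to each other with a small overlap. Its difference was -5.92 for Δ*rsrA* and -0.21 for Δ*rsrB*, each minus Δ*ku70*. The lowest of the 6 other values was 53.7 times the highest Δ*rsrA* value, the widest gap among the 63 genes, where the median gap was 4.06 times and the narrowest 2.23 times.

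The gene with the next identifier number, POX09026, also belonged to the 63. It had 18.52, 17.81 and 14.17 FPKM in Δ*rsrA*, 120.12, 109.71 and 94.29 FPKM in Δ*rsrB*, and 127.25, 158.41 and 142.91 FPKM in Δ*ku70*. Here the Δ*rsrB* values lay just under the Δ*ku70* values without overlap, and the Δ*rsrA* values far under both. Its differences from Δ*ku70* were -3.01 in Δ*rsrA* and -0.40 in Δ*rsrB*. In Δ*rsrA* POX09025 had the lower FPKM of the pair, whereas in Δ*rsrB* and Δ*ku70* it had the higher.

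POX06145 and POX06146 formed the other pair with adjoining numbers. POX06145 had 87.28, 88.0 and 58.29 FPKM in Δ*rsrA*, 1864.52, 1793.51 and 1480.82 FPKM in Δ*rsrB*, and 827.79, 2254.34 and 1680.27 FPKM in Δ*ku70*. POX06146 had 25.3, 22.53 and 11.74 FPKM in Δ*rsrA*, 713.94, 618.3 and 458.15 FPKM in Δ*rsrB*, and 431.76, 901.94 and 548.03 FPKM in Δ*ku70*. In both genes replicate 3 was the lowest library of Δ*rsrA* and of Δ*rsrB*, replicate 1 was the lowest of Δ*ku70*, and the Δ*rsrB* values fell inside the parental range. Without Δ*ku70* replicate 1, Δ*rsrB* replicate 3 lay under both remaining parental values in each gene. The differences from Δ*ku70* were -4.24 in Δ*rsrA* and 0.22 in Δ*rsrB* for POX06145. They were -4.91 in Δ*rsrA* and -0.03 in Δ*rsrB* for POX06146. With Δ*ku70* replicate 1 left out, the Δ*rsrA* differences were -4.65 for POX06145 and -5.14 for POX06146.

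POX01189 and POX03912 completed the 5 genes with the most negative differences. POX01189 had 19.26, 23.36 and 18.06 FPKM in Δ*rsrA*, 379.24, 316.95 and 304.21 FPKM in Δ*rsrB*, and 554.75, 435.76 and 328.15 FPKM in Δ*ku70*. POX03912 had 2.9, 2.62 and 1.22 FPKM in Δ*rsrA*, 69.09, 49.05 and 45.77 FPKM in Δ*rsrB*, and 75.22, 74.01 and 41.7 FPKM in Δ*ku70*. Each had overlapping Δ*rsrB* and Δ*ku70* values and no overlap of either with Δ*rsrA*. The difference Δ*rsrA* minus Δ*ku70* was -4.35 for POX01189 and -4.31 for POX03912.

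**Figure D3:**
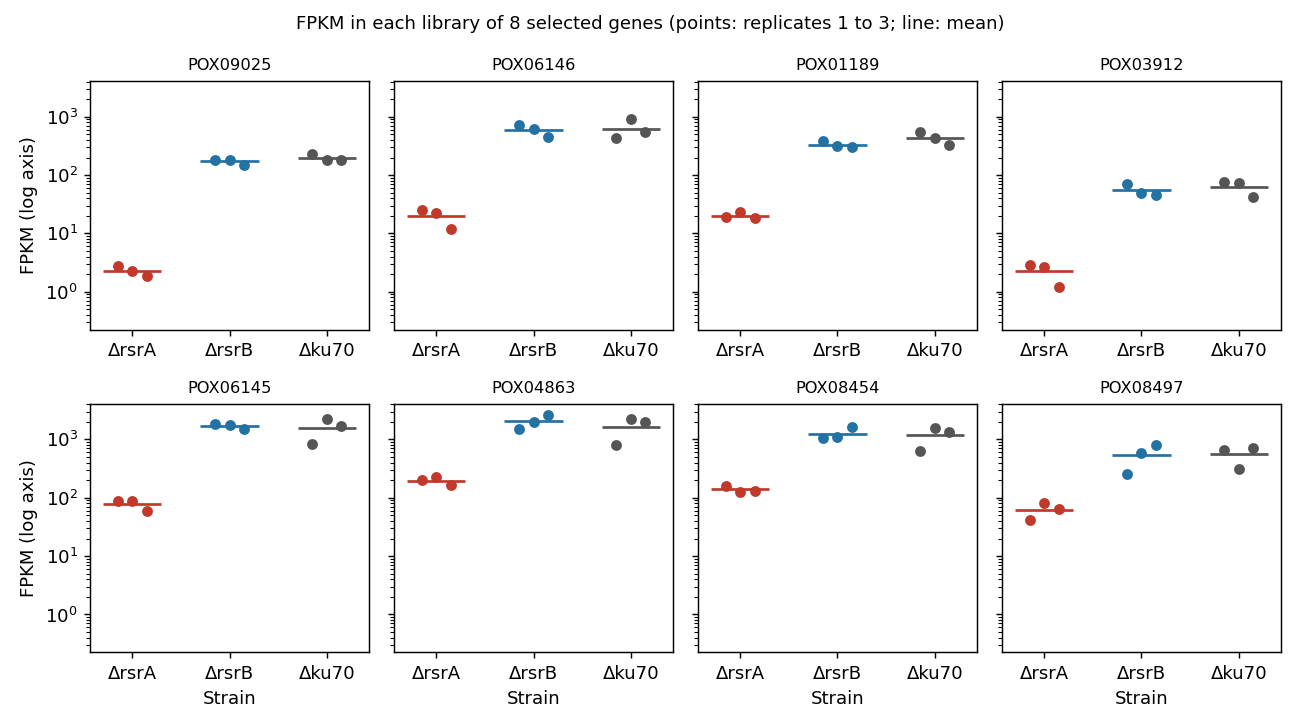
FPKM on a log axis in each library of 8 of the 63 genes, with Δ*rsrA* left, Δ*rsrB* in the middle and Δ*ku70* right. Points are replicates 1 to 3 from left to right and the line is their mean. The Δ*rsrA* points lie under all others in each panel, by the widest gap in POX09025.

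The 3 genes with the highest parental means were POX04863, POX06145 and POX08454. POX04863 had 199.05, 224.63 and 166.3 FPKM in Δ*rsrA*, 1506.57, 1960.07 and 2619.64 FPKM in Δ*rsrB*, and 795.28, 2233.87 and 1964.75 FPKM in Δ*ku70*. POX08454 had 157.73, 126.98 and 132.06 FPKM in Δ*rsrA*, 1055.61, 1102.44 and 1630.7 FPKM in Δ*rsrB*, and 637.59, 1546.11 and 1359.54 FPKM in Δ*ku70*. Both remained well expressed in Δ*rsrA*, at levels above those of most of the 63 genes in Δ*ku70*, and both had their lowest Δ*ku70* value in the library that stood apart. The differences from Δ*ku70* were -2.95 for POX04863 and -2.99 for POX08454 in Δ*rsrA*, against 0.38 and 0.17 in Δ*rsrB*. Without Δ*ku70* replicate 1, the Δ*rsrA* differences were -3.42 for POX04863 and -3.38 for POX08454. Against Δ*ku70* replicates 2 and 3 alone, Δ*rsrB* replicates 1 and 2 were lower and replicate 3 was higher in both genes.

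Summed over the 63 genes, FPKM made up 0.143%, 0.146% and 0.127% of the library total in Δ*rsrA*, 1.06%, 1.08% and 1.19% in Δ*rsrB*, and 0.887%, 1.35% and 1.15% in Δ*ku70*. Without the 3 genes of highest mean FPKM, the mean share was 0.0986% in Δ*rsrA* and 0.645% in Δ*rsrB*, beside 0.696% in Δ*ku70*. For all 63 genes the means were 0.138% ± 0.0102 in Δ*rsrA* and 1.11% ± 0.0701 in Δ*rsrB*, beside 1.13% ± 0.231 in Δ*ku70* (SD, n = 3 each). The 3 Δ*rsrB* shares lay inside the span of the 3 Δ*ku70* shares, and the lowest share in Δ*ku70* came from replicate 1. Without that library, the Δ*rsrB* shares of 1.06% and 1.08% lay under both remaining Δ*ku70* shares, and that of 1.19% lay between them.

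The level left in Δ*rsrA*, in percent, covered overlapping ranges in weakly and strongly expressed genes. The 12 genes with a parental mean under 10 FPKM had a median of 9.73% of the Δ*ku70* level in Δ*rsrA*, the 33 genes at 10 to 100 FPKM 12.7%, and the 18 genes at 100 FPKM or more 12.1%. On the log2(FPKM + 1) scale, the median differences Δ*rsrA* minus Δ*ku70* were -2.25, -2.57 and -2.97 in the same order. The added 1 shrinks the difference of weakly expressed genes, whose median log2 ratio of mean FPKM without it was -3.37, beside -2.98 and -3.05 in the other groups. With the limit of -2 set on that scale, weakly expressed genes had to fall to a smaller percent to be chosen. The highest percent was 15.2% in the weakest group and 23.4% in each other group. The choice of the genes therefore bears on these medians.

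**Figure D4:**
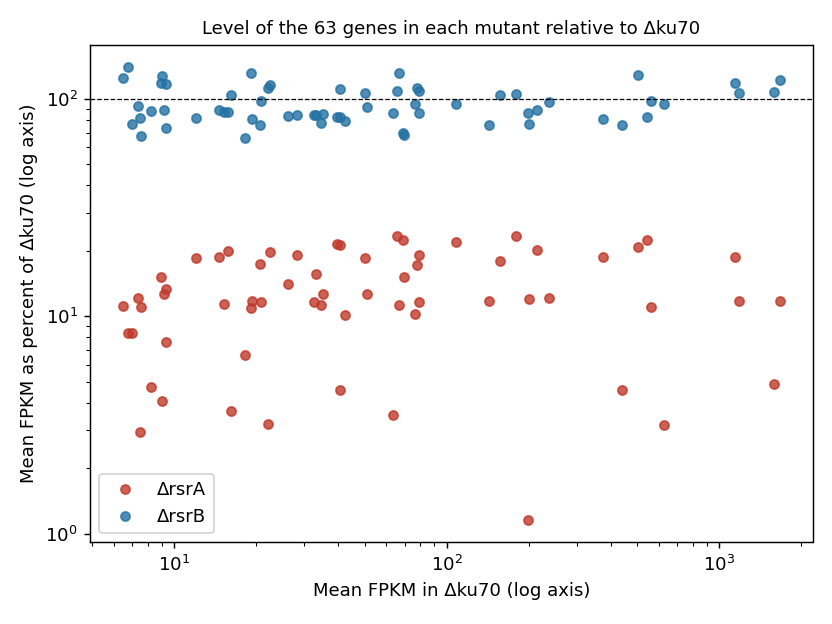
Mean FPKM of the 63 genes in Δ*rsrA* (red) and Δ*rsrB* (blue) as a percent of the Δ*ku70* mean, against the Δ*ku70* mean FPKM, both on log axes. Δ*rsrA* points lie between 1.16% and 23.4%, Δ*rsrB* points between 66.5% and 140%, and the dashed line marks 100%.

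Several genes outside the naming rule were singled out after their values were seen because they were nearly silent in Δ*rsrA* or had narrow spreads. POX08483 had 0.84, 0.78 and 0.5 FPKM in Δ*rsrA*, 31.24, 23.89 and 19.15 FPKM in Δ*rsrB*, and 16.93, 27.79 and 21.4 FPKM in Δ*ku70*. POX00444 had 0.22, 0.11 and 0.33 FPKM in Δ*rsrA*, 5.96, 6.04 and 6.23 FPKM in Δ*rsrB*, and 9.51, 6.72 and 6.16 FPKM in Δ*ku70*. These genes had the widest gaps after POX09025, at 20.2 times for POX08483 and 18.1 times for POX00444, although both were modestly expressed in the parental strain. Both gaps are ratios to values under 1 FPKM, for which no counting error is given. The Δ*rsrA* values of POX00444 were multiples of 0.11, so its gap may rest on a few reads. POX08865 had 15.38, 15.1 and 15.67 FPKM in Δ*rsrA*, 73.95, 71.11 and 70.25 FPKM in Δ*rsrB*, and 70.21, 60.78 and 66.43 FPKM in Δ*ku70*. Its 3 Δ*rsrA* values were nearly equal, and its Δ*ku70* values lay just under its Δ*rsrB* values without overlap.

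POX08497 had the widest range among the Δ*rsrB* libraries. It had 40.85, 80.78 and 63.36 FPKM in Δ*rsrA*, 259.76, 591.21 and 787.69 FPKM in Δ*rsrB*, and 662.05, 309.04 and 709.05 FPKM in Δ*ku70*. The spread in every strain was large, the Δ*rsrB* and Δ*ku70* values overlapped broadly, and the mean difference Δ*rsrB* minus Δ*ku70* of -0.09 came from values on both sides. POX00701 had 3.59, 4.3 and 2.93 FPKM in Δ*rsrA*, 9.58, 14.62 and 22.74 FPKM in Δ*rsrB*, and 13.4, 25.6 and 22.73 FPKM in Δ*ku70*. It had the narrowest gap of the 63 genes.

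The genes at the ends of the Δ*rsrB* scale were both weakly expressed. POX09347, with the highest difference of 0.45, had 0.85, 0.57 and 0.28 FPKM in Δ*rsrA*, 9.87, 8.57 and 9.95 FPKM in Δ*rsrB*, and 5.03, 7.6 and 7.59 FPKM in Δ*ku70*. POX07498, with the lowest difference of -0.49, had 0.84, 0.58 and 1.09 FPKM in Δ*rsrA*, 5.41, 5.74 and 4.15 FPKM in Δ*rsrB*, and 6.12, 8.99 and 7.64 FPKM in Δ*ku70*. In neither gene did the Δ*rsrB* and Δ*ku70* values overlap, so the limit of 0.5 did not exclude separated values. Such separation was found in 8 of the 63 genes, with Δ*rsrB* lower in 5 and higher in 3, beside 33.1% of all genes tested. In 22 genes all 3 Δ*rsrB* values lay inside the range of the Δ*ku70* values. Without Δ*ku70* replicate 1, 7 of the 63 genes had an absolute difference Δ*rsrB* minus Δ*ku70* of 0.5 or more, 6 lower and 1 higher. The share over all genes is not given for the counts of 22 and 7. The limit of 0.5 bears on both, and nothing is read from them.

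The limit of -2 cut through a dense part of the scale, and 94 further genes that met the other conditions had differences between -2 and -1.5. The genes just inside were POX06715 at -2.014, POX06508 at -2.021 and POX09356 at -2.024. Just outside were POX01603 at -1.998, POX06419 at -1.993 and POX07141 at -1.987. POX06715 had 1.92, 2.18 and 2.58 FPKM in Δ*rsrA*, 8.23, 10.49 and 10.79 FPKM in Δ*rsrB*, and 13.1, 11.3 and 11.64 FPKM in Δ*ku70*. POX07141, outside the limit, had 12.92, 13.11 and 13.56 FPKM in Δ*rsrA*, 56.58, 57.44 and 54.92 FPKM in Δ*rsrB*, and 57.55, 52.56 and 55.76 FPKM in Δ*ku70*. The excluded gene had the tighter replicates and overlapping Δ*rsrB* and Δ*ku70* values, so the limit divided genes by the size of the difference alone. At the other limits, POX07422 with a difference Δ*rsrB* minus Δ*ku70* of -0.50 and POX00540 with a Δ*ku70* range of 1.562 lay just outside.

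The spread between replicates was wider in the 63 genes than in the typical gene of each strain. All genes tested are here those tested between Δ*rsrA* and Δ*ku70*, for each strain. The median SD of log2(FPKM + 1) in Δ*rsrA* was 0.18 over the 63 genes, beside 0.14 over all genes tested. In Δ*rsrB* it was 0.20 beside 0.17, and in Δ*ku70* 0.38 beside 0.30. Within Δ*rsrA*, replicate 3 was the lowest library in 42 of the 63 genes, or 66.7%, beside 46.5% of all genes tested. Its FPKM total was the lowest of the strain, and with all totals set equal it was lowest in 36 of the 63 genes, beside 34.6% of all genes tested. Within Δ*ku70*, replicate 1 was the lowest in 50.8% of the 63 genes, beside 44.1% of all genes tested, and the highest in 31.7%, beside 36.8%.

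Identifier numbers of the 63 genes ran from 377 to 9356. As well as the pairs POX06145 with POX06146 and POX09025 with POX09026, the genes POX01189 and POX01193, POX02011 and POX02014, and POX02066 and POX02069 lay within 5 numbers of each other. Whether the order of the numbers is the order along the genome was not analysed here. On either side of the first pair, POX06144 differed by -0.18 and POX06148 by -0.34 between Δ*rsrA* and Δ*ku70*. POX06147, with 2.99, 2.76 and 2.83 FPKM in Δ*rsrA* and 4.01, 3.28 and 3.54 FPKM in Δ*rsrB*, had 968.5, 3.12 and 3.06 FPKM in Δ*ku70*, so its mean difference of -2.71 rested on replicate 1 of that strain and was -0.08 without it. On either side of the second pair, POX09024 differed by -0.67 and POX09027 by -0.80, or by -0.52 and -0.61 without that replicate. In both of these genes the 3 Δ*rsrA* values lay under the 6 others.

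Of 121 genes that were not chosen and whose number was 1 away, 97 could be tested, and limma called 47 of them, or 48.5%, lower in Δ*rsrA* than in Δ*ku70* and 4 higher. The background of lower calls is the 29.0% given above. Without Δ*ku70* replicate 1, 56.8% of the neighbours were called lower beside 40.4% of all genes, and after median of ratios scaling 37.1% beside 14.7%. Their median difference was -0.80 with quartiles of -1.53 and -0.32, beside -0.29 with quartiles of -0.76 and 0.20 over all genes tested. A difference of -2 or less was found in 13.4% of these neighbours, beside 4.19% of all genes tested, and without Δ*ku70* replicate 1 in 17.9% beside 3.58%. Between Δ*rsrB* and Δ*ku70* their median difference was -0.06, beside 0.04 over all genes. The shift faded with distance, to median differences Δ*rsrA* minus Δ*ku70* of -0.51 at 2 numbers, -0.40 at 3, -0.23 at 4 and -0.31 at 5. No test of the neighbours against the other genes was made.

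Of the 64 genes that were higher in Δ*rsrA* alone, the neighbours 1 number away stood on the other side of the median of all genes. Their median difference was 0.17, with 12.1% called lower and 30.8% called higher, beside backgrounds of 29.0% lower and 9.74% higher. At 5 numbers the median was -0.35. Scaled by the median of ratios, the neighbours of the 63 genes had a median of -0.51 at 1 number, those of the 64 genes 0.46, and all genes tested 0.02. Without Δ*ku70* replicate 1 the medians were -0.74 for the neighbours of the 63 genes, 0.11 for those of the 64 genes and -0.32 for all genes tested. At 1 number, the neighbours of the 63 genes had a median Δ*ku70* level of 20.8 FPKM and those of the 64 genes one of 20.4 FPKM. All genes tested had a median of 28.8 FPKM. The part of this level in the shift was not tested.

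**Figure D5:**
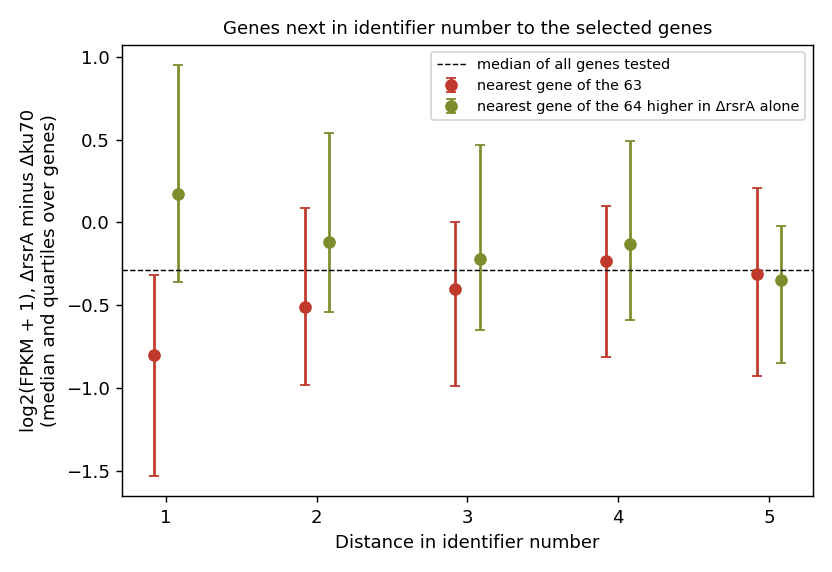
Median difference in log2(FPKM + 1), Δ*rsrA* minus Δ*ku70*, with quartiles over genes as bars, of genes 1 to 5 identifier numbers from the nearest of the 63 genes (red) and of the 64 genes higher in Δ*rsrA* alone (green). The dashed line is the median of all genes tested, -0.29, and the points lie farthest from it at 1 number, at -0.80 and 0.17.

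Among the neighbours 1 number away, 13 had a difference of -2 or less, and in 2 of these it rested on Δ*ku70* replicate 1. POX06147 is described above, and POX08484 had 18.45, 20.05 and 23.02 FPKM in Δ*rsrA*, 22.85, 25.88 and 25.54 FPKM in Δ*rsrB*, and 4831.55, 20.88 and 29.13 FPKM in Δ*ku70*. The difference of POX08484 was -2.78 with that library and -0.26 without it. POX01188, next to POX01189, had the most negative difference of the neighbours, -5.60, and was chosen after its values were seen. It had 0.07, 0.13 and 0.07 FPKM in Δ*rsrA*, 18.0, 16.61 and 13.4 FPKM in Δ*rsrB*, and 151.78, 36.69 and 24.79 FPKM in Δ*ku70*. Its Δ*rsrA* values were near 0 and its Δ*rsrB* values lay under all Δ*ku70* values, with a difference Δ*rsrB* minus Δ*ku70* of -1.65. Without Δ*ku70* replicate 1, its highest library, the differences of POX01188 were -4.84 in Δ*rsrA* and -0.88 in Δ*rsrB*. POX02068, next to POX02069, missed the Δ*rsrB* limit by less, at -0.65. It had 88.7, 71.1 and 63.32 FPKM in Δ*rsrA*, 332.85, 215.53 and 197.88 FPKM in Δ*rsrB*, and 370.21, 435.21 and 341.2 FPKM in Δ*ku70*, and its Δ*rsrB* values lay just under the parental ones.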

How the data were processed

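The authors deposited FPKM values, 1 list of the same 9721 genes per library, with replicates kept apart. Per the submitters' notes, bcl2fastq and HISAT2 were used, while the methods list NOISeq and, with versions, BWA, Bowtie2 and RSEM, but not the step each tool served, and the strandedness of the counting is not given in the sources used here. RNA was extracted with Trizol per the labels and with a column kit per the methods. FPKM is scaled to the library, so a larger share in some genes lowers the others. FPKM is not a count, so no count test was used.

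Values were analysed as log2(FPKM + 1) (Python 3.11.15). In R 4.3.3, limma 3.58.1 (lmFit, then eBayes with a mean-variance trend) compared strains on the 6 libraries concerned. Genes averaging 1 FPKM or more in these libraries were tested, with Benjamini-Hochberg adjustment over all genes tested and calls at an adjusted p under 0.05. The fit was tested on simulated data. The 63 genes and the lists were chosen with earlier results of these data known. Genes named are the deleted genes, the 5 with the most negative difference, the 3 with the highest Δ*ku70* mean, both ends of the Δ*rsrB* scale, 3 on each side of the limit of -2, adjoining identifiers, and up to 2 with the widest range per strain.

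Replicate numbers were checked across 8589 genes by the correlation of deviations from strain means. It was 0.581, 0.101 and 0.470 between Δ*rsrA* and Δ*rsrB* libraries of the same number, each over 0.1, so these were taken as paired, from the values alone. For replicate 2 the same number did not give the highest correlation, so the pairing is weak there. The main fits did not use the pairing, and the replicate block was an alternative. It was -0.064, -0.062 and 0.089 between Δ*rsrA* and Δ*ku70*, and 0.051, -0.174 and 0.263 between Δ*rsrB* and Δ*ku70*. Alternatives were other pseudocounts, scalings, filters and limits of the rule, a fit over all 9 libraries, a replicate block and leaving out each library. Differences of neighbouring genes without Δ*ku70* replicate 1 were added after seeing the data. None of the identifiers matched the reference table, so pathway lists and sequences were not used here.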

Additional observations from a re-analysis of the deposited data

How the results depend on the processing

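Membership changed with the limits, the pseudocount, the scaling and the libraries used. The calls were not made again under other limits of the rule. Nothing is read from the calls below, because the choice of the 63 genes fixed the main counts. The rule found 108 genes with a pseudocount of 0.1, of which 61 were among the 63, 40 after median of ratios scaling (40 of the 63) and 39 after quantile normalization (38 of the 63), and the cause was not tested. By construction it found 157 genes at a limit of -1.5, 33 at -2.5, 33 with an absolute Δ*rsrB* difference under 0.25 and 119 under 1. Leaving out 1 library gave 61 to 108 genes, the most without Δ*ku70* replicate 1, where 49 of the 63 remained. Of the 63 genes, 27 met the rule under all 4 pseudocount and scaling alternatives and with each of the 9 libraries left out. The median difference of the 63 genes, Δ*rsrA* minus Δ*ku70*, was -2.96 with a pseudocount of 0.1 and -2.20 after quantile normalization. Δ*rsrA* minus Δ*rsrB* was -2.75 with that pseudocount, -2.20 after median of ratios scaling and -2.10 after quantile normalization. Without the 3 members of highest mean FPKM, the share of the total was 0.0986% in Δ*rsrA* and 0.645% in Δ*rsrB*, beside 0.696% in Δ*ku70*. Between Δ*rsrB* and Δ*ku70*, 0 to 2 of the 63 genes were called with a library left out, 2 of them without Δ*ku70* replicate 1. With a replicate block, limma called 63 of the 63 genes lower when Δ*rsrA* was set against Δ*ku70*, 0 when Δ*rsrB* was, and 63 lower when Δ*rsrA* was set against Δ*rsrB*, so it changed no call of these genes. In the same order, the block called 19.3% of all genes tested lower, 1.73% in either direction and 51.7% lower. The main fits called 29.0%, 3.95% and 45.1%. No call lower in Δ*rsrA* than in Δ*ku70* was lost with a library left out, where the highest adjusted p in limma was 0.0343. Depth is unknown, so no counting error is given for values under 1 FPKM.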
